A study of Schizosaccharomyces pombe with 2 samples.

Results

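The genes described here encode the cyclin-dependent kinase of fission yeast, Cdc2, with its cyclins and the proteins that switch it on and off. They are 10 genes, chosen by symbol for their place in this circuit: cdc2, cdc13, cig1, cig2, puc1, cdc25, wee1, mik1, rum1 and ste9. Each was found in the array's platform table by its symbol or synonym, each had 1 probe set with a signal above 0, and none was missing. They are 10 of the 2896 Schizosaccharomyces pombe genes that could be matched to a probe set. The gene ste9 stands under its other name, srw1, in both the platform table and the reference. The array also carries probe sets of the Saccharomyces cerevisiae genes CDC13 and CDC25, which bear the same letters but are other genes, and both of these were at 0 in both arrays and were not used.

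Polyadenylated RNA was measured in 2 strains. The deletion strain, ST3479, carries the genotype label SD5 and is described as deleted for subtelomeres, the chromosome regions beside the telomere repeats. The comparison strain, JP1225, is labelled wild-type. Both are of mating type h-, and both were harvested while growing exponentially at 32 °C in the rich medium YES, which is based on yeast extract. Each strain is represented by 1 array, so strain, culture and array cannot be told apart. There is no replicate error, no test was possible, and every ratio describes these 2 arrays. The labels give no cell-cycle stage beyond exponential growth, and a bulk signal averages over all stages present in the culture.

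Cdc2 is a protein kinase that works only when bound to a cyclin, and its activity drives both DNA replication and mitosis. Before mitosis, Wee1 and Mik1 hold the Cdc2-cyclin complex inactive by phosphorylating a tyrosine of Cdc2, and the phosphatase Cdc25 removes that phosphate. In G1, Rum1 inhibits the kinase directly, while Ste9 directs the anaphase-promoting complex, a ubiquitin ligase, to destroy mitotic cyclins. Much of this control acts on proteins, through their phosphorylation and destruction, and an array of mRNA does not measure it.

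Over S. pombe probe sets the signal had a median of 998 in SD5 and 1168 in wild-type, against a background of 26.6 in SD5 and 17.7 in wild-type. Of the 4999 S. pombe probe sets, 97.0% in SD5 and 98.7% in wild-type lay above background. Over probe sets above background in both arrays, SD5 signals were lower by a median of -0.20 on the log2 scale (0.869-fold), and this shift was removed from every ratio below unless the ratio is called uncentred. The 3′ to 5′ signal ratio of the actin mRNA, a sign of how complete the labelled RNA was, was 2.33 in SD5 and 2.18 in wild-type, and its part in the ratios was not tested. The strains' h- label was set beside mating-type genes. The M-factor gene mfm2, expected in h- cells, had a signal of 2965 in SD5 and 3260 in wild-type. The M-factor genes mfm1 and mfm3 were dim, with mfm3 at 81.9 in SD5 and 91.2 in wild-type and mfm1 lower in both. Of the 4 genes listed as markers of the opposite type, P, sxa1 had 2288 in SD5 and 2728 in wild-type. The P marker map2 was dim, at 70.2 in SD5 and 70.9 in wild-type. All 4 P markers were above background in both arrays, like the 6 of type M. These signals therefore do not separate the types.

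All 10 genes were measured above background in both strains, and none differed by 2-fold. Among all S. pombe probe sets with a ratio, 0.877% were at least 2-fold lower or higher in SD5, including probe sets below background in 1 array. Of the 4847 probe sets above background in both arrays, as the 10 genes were, 6 were 2-fold lower and 2 higher. With shares that low, a count of 0 among 10 genes does not set them apart. The median log2 ratio of the 10 genes, SD5 over wild-type, was -0.03, with 6 below 0 and 4 above, against 0.00 over the 2851 named genes measured in both arrays. The ratios ran from -0.25 for cig1 to 0.25 for ste9. All 10 lay within 1.2-fold of the wild-type, as did 94.6% of all named genes measured in both arrays.

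**Figure D1:**
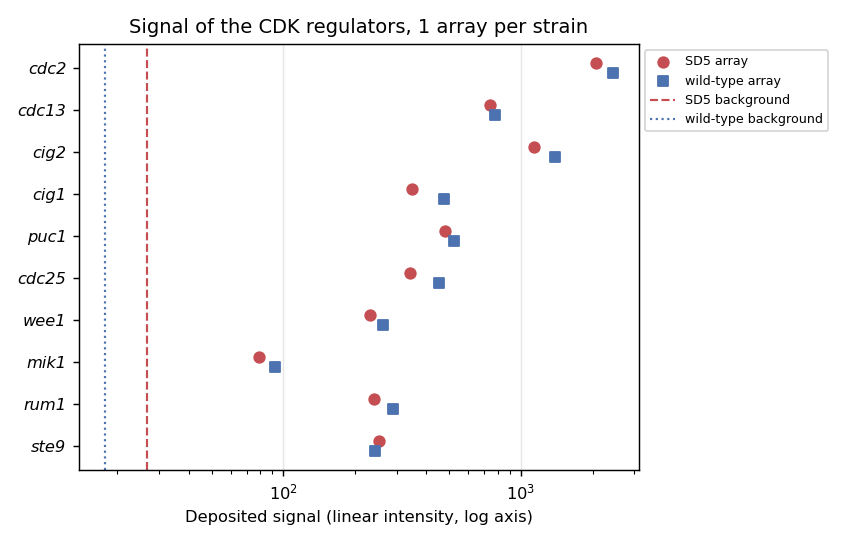
Deposited signal of each gene (linear intensity on a log axis) in the SD5 array (red circles) and the wild-type array (blue squares), 1 array per strain, with the background of each array as a vertical line. The dimmest gene, mik1, had a signal of 79.1 in SD5 and 91.8 in wild-type, and each gene's pair of points lies close together.

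To give the ratios a scale, each gene was set beside the 200 S. pombe probe sets nearest to it in mean log2 signal. The spread of those probe sets, given as a robust SD of the log2 ratio, is a spread between different genes on 1 pair of arrays and not an error of replication. All 10 genes lay inside the 5th to 95th percentile of their like-signal probe sets. Over the whole array 10.8% of probe sets lay outside that range, close to the share that its definition fixes.

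**Figure D2:**
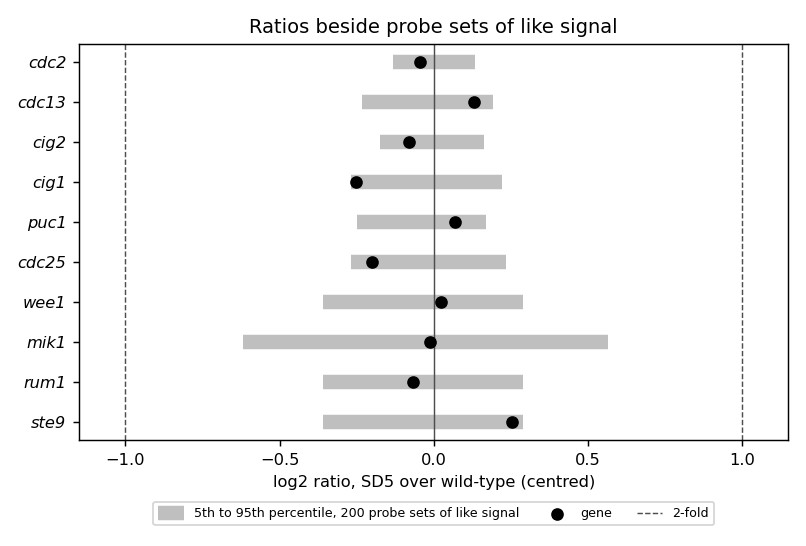
Centred log2 ratio of each gene, SD5 over wild-type (black points), on the range from the 5th to the 95th percentile of the 200 probe sets of like signal (grey bars), with dashed lines at 2-fold. All 10 points lie on their bars, cig1 close to the lower edge at -0.25 and ste9 close to the upper edge at 0.25.

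The kinase gene itself, cdc2 (SPOM_SPBC11B10.09, chromosome II), had a signal of 2058 in SD5 and 2443 in wild-type. That is a log2 ratio of -0.04 (0.970-fold), beside a robust SD of 0.073 among probe sets of like signal. Being bright, cdc2 has the narrowest range of the 10 genes, from -0.13 to 0.13, and its ratio lay well inside it.

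Among the cyclins, cdc13 and cig1 stood at opposite ends. The B-type cyclin gene cdc13 (SPOM_SPBC582.03, chromosome II), whose product with Cdc2 drives mitosis, had 738 in SD5 and 776 in wild-type. Its centred log2 ratio was 0.13 (1.09-fold), but uncentred it was -0.07, so the side of 0 on which it lies depends on the centring. The B-type cyclin gene cig1 (SPOM_SPCC4E9.02, chromosome III) had 347 in SD5 and 475 in wild-type, a log2 ratio of -0.25 (0.840-fold) and the lowest of the 10 genes. It ranked 91st from the lowest of 2851 named genes. Its distance from the median of like-signal probe sets was -1.86 robust SDs, and their 5th percentile was -0.27.

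The cyclin that acts mainly at the start of S phase is encoded by cig2 (SPOM_SPAPB2B4.03, chromosome I). It had 1139 in SD5 and 1386 in wild-type, a log2 ratio of -0.08 beside a robust SD of 0.091. The G1 cyclin gene puc1 (SPOM_SPBC19F5.01C, chromosome II) had 477 in SD5 and 523 in wild-type. Its ratio was 0.07 after centring and -0.14 uncentred, so it too changes sides. The 4 cyclin genes had 2 ratios below 0 and 2 above, with a median of -0.01. The difference between the log2 ratios of cdc13 and cig1 was 0.38, a value that does not depend on a shift common to all probe sets. The like-signal spreads of both genes combined gave 0.18. Because cdc13 and cig1 are the highest and lowest of the 4 cyclins, this is the widest gap among them. A spread for 1 pair not picked by its values is no measure of such a gap.

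The genes that set the tyrosine phosphorylation of Cdc2 came next. The phosphatase gene cdc25 (SPOM_SPAC24H6.05, chromosome I) had a signal of 340 in SD5 and 450 in wild-type. Its log2 ratio was -0.20 (0.870-fold), the next lowest after cig1, at -1.43 robust SDs from the median of like-signal probe sets. The kinase gene wee1 (SPOM_SPCC18B5.03, chromosome III) had 232 in SD5 and 263 in wild-type, a log2 ratio of 0.02 that was -0.18 uncentred. Its relative mik1 (SPOM_SPBC660.14, chromosome II) encodes the other inhibitory kinase and had 79.1 in SD5 and 91.8 in wild-type, a log2 ratio of -0.01. The dim signal of mik1, at 2.97 times the background in SD5 and 5.19 times in wild-type, came with the widest like-signal range, from -0.62 to 0.56. That range is a spread between genes, and how far the ratio of mik1 itself would vary between replicates was not measured. The log2 ratio of cdc25 was lower than that of wee1 by -0.22, against a combined like-signal spread of 0.21. Beside mik1, the other inhibitory kinase gene, the difference was -0.19, inside a combined spread of 0.34.

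**Figure D3:**
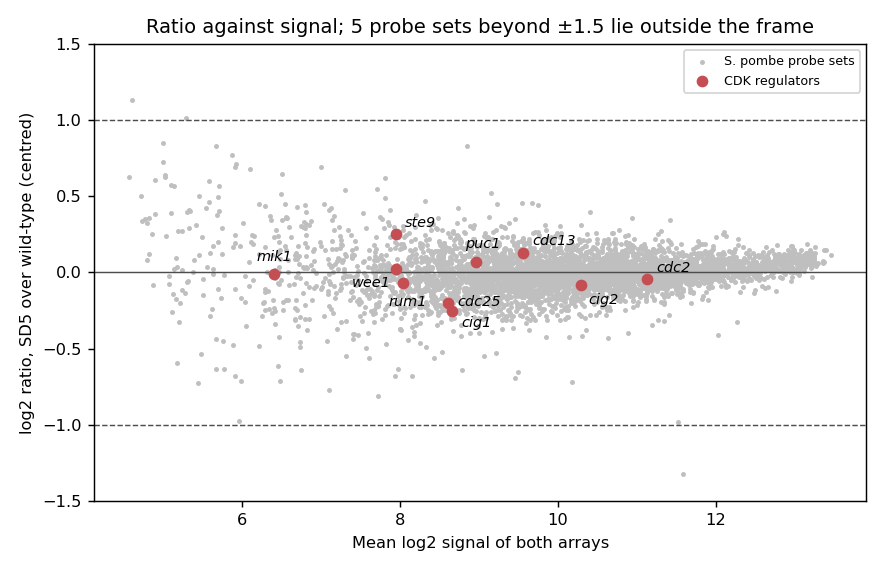
Centred log2 ratio, SD5 over wild-type, against the mean log2 signal of both arrays for S. pombe probe sets above background in both (grey), with the 10 genes in red and dashed lines at 2-fold. The cloud is wider at dim signals, where mik1 lies, than at bright signals, where cdc2 lies, and the red points fall inside it.

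The CDK inhibitor gene rum1 (SPOM_SPBC32F12.09, chromosome II) had 240 in SD5 and 289 in wild-type, a log2 ratio of -0.07 beside a robust SD of 0.14. The gene ste9 (SPOM_SPAC144.13C, chromosome I) had 252 in SD5 and 244 in wild-type, and was the only one of the 10 with a higher deposited signal in SD5. Its log2 ratio was 0.25 (1.19-fold), or 0.05 uncentred, which ranked 80th from the highest of 2851 named genes. It lay 1.74 robust SDs above the median of like-signal probe sets, whose 95th percentile was 0.29. The log2 ratio of rum1 was lower than that of ste9 by -0.32, against a combined spread of 0.21. Among the 4 inhibitor genes (wee1, mik1, rum1 and ste9), rum1 was the lowest and ste9 the highest, so this gap too is the widest of its group. Further pairs were compared, and some lay inside their combined spread and some beyond it. That spread combines 1 robust SD of each gene and is not a limit, so a difference beyond it does not set a pair apart. The ratio of cdc13 was higher than that of cig2 by 0.21, against 0.15, and than that of rum1 by 0.20, against 0.19. For wee1 over mik1 the difference was 0.04, against 0.35. The ratio of cdc13 was lower than that of ste9 by -0.12, against 0.19, and higher than that of cdc2 by 0.17, against 0.14.

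Grouped by what the products do to the kinase, the 5 activators (the 4 cyclins and cdc25) had a median log2 ratio of -0.08, and the 4 inhibitors (wee1, mik1, rum1 and ste9) a median of 0.01. The activators ran from -0.25 to 0.13 and the inhibitors from -0.07 to 0.25, so the groups overlapped.

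The position of the genes was read as their order among the protein-coding genes of the reference assembly, since no source used here names the array's own build. The nearest to a chromosome end was mik1, the 75th gene from the left end of chromosome II. Next came cdc13, 152nd from that end, and cdc25, 189th on chromosome I from its left end, and the others lay between 270 and 1150 genes from an end. The 3 genes with the largest ratios in either direction, cig1, ste9 and cdc25, were 447, 372 and 189 genes from an end. Named genes within 5 genes on either side of cig1 had a median log2 ratio of -0.02 over 9 genes, those around cdc25 one of -0.03 over 5, and those around ste9 one of -0.02 over 5. Single neighbours ran from -0.18 to 0.30 around cig1, from -0.20 to 0.00 around cdc25 and from -0.08 to 0.16 around ste9. Whether position has a part in the ratios was not tested.

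The wider network around the kinase was followed in 9 gene lists of 81 genes in all, of which 76 were measured in both arrays. None of the 76 was 2-fold or even 1.5-fold lower or higher in SD5. Of them, 49 lay below 0 and 27 above, where 50% of all S. pombe probe sets measured in both arrays lay below 0. Of the 76, 6 (7.89%) lay outside the 5th to 95th percentile of their like-signal probe sets, against 10.8% of all probe sets.

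Genes whose products activate or bind Cdc2 were close to 0. The CDK-activating kinase and its partners, with the CDK-binding protein gene suc1, had a median of 0.02 over 5 genes, from mcs2 at -0.10 to pmh1 at 0.05. The list of cell size, checkpoint and related input to the tyrosine phosphorylation of Cdc2 had a median of -0.06 over 14 genes. Of these, 11 lay below 0, beside the 50% of all probe sets. The lowest was chk1, the DNA damage checkpoint kinase gene, with a signal of 143 in SD5 and 219 in wild-type (log2 ratio -0.41, just outside its like-signal 5th percentile of -0.40). The polarity kinase gene pom1 was the highest of this list at 0.08.

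MBF is the transcription factor that switches on genes at the passage from G1 to S phase, and cig2 and mik1 are among its known targets. All 5 measured genes of MBF subunits and regulators lay below 0, with a median of -0.12, from the co-repressor gene nrm1 at -0.18 to cdc10 at -0.03. Beside the 50% of all probe sets below 0, that is a count over few genes, and none of the 5 lay outside its like-signal range. Another 8 measured MBF targets had a median of -0.03. They ran from the cohesin subunit gene rad21 at -0.19 to the DNA polymerase alpha gene pol1 at 0.20, with the replication initiator gene cdc18 at 0.01 (475 in SD5 and 544 in wild-type). The ratios of cig2 (-0.08) and mik1 (-0.01) lay within the range of these targets.

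The anaphase-promoting complex, which Ste9 activates in G1 and Slp1 in mitosis, had a median of 0.03 over 12 measured genes, 7 above 0. Its small subunit genes apc11 (953 in SD5 and 884 in wild-type, log2 ratio 0.31) and apc14 (633 in SD5 and 621 in wild-type, 0.23) were above their like-signal ranges, and apc2 was the lowest at -0.11. The gene slp1 was at 0.03. The gene apc13 had 19.8 in SD5, below background, and 28.2 in wild-type, and gave no ratio. Genes of the SCF ubiquitin ligase, which marks Rum1 and Cig2 for destruction, had a median of -0.03 over 5 genes, from pop2 at -0.13 to pop1 at 0.04. The SCF subunit gene rbx1 was just below its narrow like-signal range at -0.09.

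**Figure D4:**
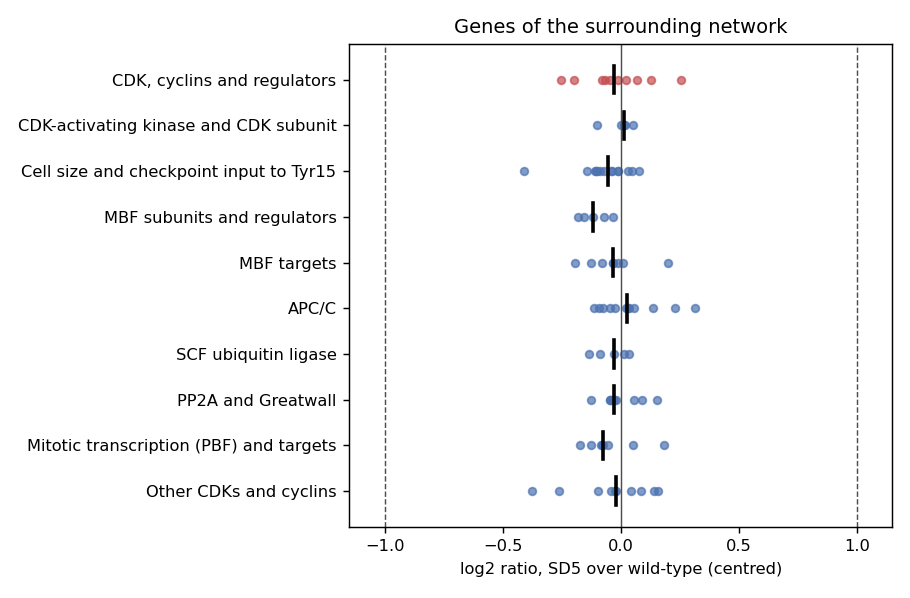
Centred log2 ratio, SD5 over wild-type, of the 10 CDK, cyclin and regulator genes (red) and of the genes of 9 surrounding lists (blue), 1 point per gene measured in both arrays, with the median of each list as a black bar and dashed lines at 2-fold. All points lie between -0.41 (chk1) and 0.31 (apc11), and the medians between -0.12 and 0.03.

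The phosphatase PP2A and the Greatwall-type pathway, which oppose Cdc2 and restrain that opposition, had a median of -0.03 over 9 genes, from ppk18 at -0.13 to the catalytic subunit gene ppa2 at 0.15. The mitotic transcription factors of the forkhead and MADS-box families, with their targets, had a median of -0.08 over 8 genes. Their lowest member was the septation kinase gene sid2 at -0.17 and their highest spo12 at 0.18 (2178 in SD5 and 2207 in wild-type), which was above its like-signal range. Other CDKs and cyclins, several of which act in transcription, had a median of -0.02 over 10 genes. The highest was the cyclin gene psl1 at 0.16. The lowest was srb10, the Mediator kinase gene, at -0.38 (93.0 in SD5 and 139 in wild-type), inside the range of like-signal probe sets. The cyclin gene pas1 had 1249 in SD5 and 1724 in wild-type, and its ratio of -0.26 lay below its own like-signal range.

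How far each ratio depends on the calculation was followed under 9 alternatives, and no gene of the 10 reached 2-fold in any that gave a value. Leaving out the centring adds the same shift of -0.20 to every gene, and so says nothing on how the genes differ from each other. In the other alternatives, wee1 ran from -0.03 to 0.10 and mik1 from -0.06 to 0.20, so these genes lay on either side of 0 depending on the calculation. In the same alternatives, cig1 ran from -0.30 to -0.22, cdc25 from -0.25 to -0.16, cig2 from -0.13 to -0.06, rum1 from -0.12 to -0.01 and cdc2 from -0.10 to -0.04. The genes above 0 ran from 0.08 to 0.16 for cdc13, from 0.02 to 0.12 for puc1 and from 0.20 to 0.33 for ste9. The median of the 10 genes was 0.04 after quantile normalization and 0.02 with the background as a pseudocount, against -0.03 as reported, so its side of 0 is not settled.

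**Figure D5:**
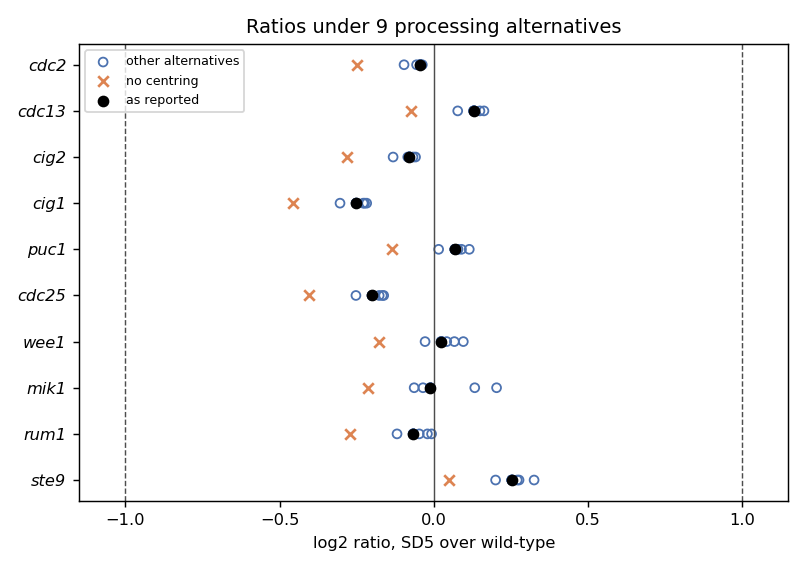
Log2 ratio of each gene, SD5 over wild-type, as reported (black), under the alternatives other than leaving out centring (open blue circles) and without centring (orange crosses), with dashed lines at 2-fold. Leaving out the centring moves every gene to the left, and the lowest value is -0.45 for cig1.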

How the data were processed

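Per the labels' protocols, polyadenylated RNA was labelled with biotin by a 3′ in vitro transcription kit using 5 ng in a procedure written for 250 ng of total RNA, which favours signal near 3′ ends. GCOS 1.4 appears, without a role, in the submitters' processing notes. The authors deposited 1 linear intensity value for each probe set on each array; how these were scaled and masked is not stated in the labels. Of 10928 rows, 5748 were 0 in both arrays and were left out as masked, and 181 were controls.

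Probe sets were named through the platform's table (5538 probes, 5518 with 1 gene symbol, 20 with several, and 5390 further array rows not listed), and 2914 matched an S. pombe gene by gene identifier (ASM294v3). The background was taken from 79 probe sets that have no target in S. pombe, as their 95th percentile. Signals below it were set to it, and the median log2 ratio of probe sets above it in both arrays was subtracted. A gene was called at 2-fold. The comparison with 200 like-signal probe sets was chosen after seeing the data. The number of arrays limits the precision.

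The genes and lists were chosen with earlier results of these data known. Named genes were the 10, plus the lowest and highest of each list. The genes chk1, apc11, apc14, rbx1, spo12 and pas1 were added because they lay outside their like-signal range. The genes cdc18, slp1, apc13, mfm1, mfm2, mfm3, sxa1, map2 and map3 were named after their values were seen. The ratio calculation was tested on simulated data, with changes larger than 2-fold placed in brighter probe sets only. That test does not bear on ratios as small as those of the 10 genes. Python 3.11.15, numpy 2.4.6, pandas 2.3.3, statsmodels 0.14.6 (loess) and matplotlib 3.10.9 were used. The 9 alternatives were no centring, quantile and loess normalization, centring on hybridisation controls, 2 other backgrounds, the background as a pseudocount, no floor, and the brightest probe set of each gene.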

Additional observations from a re-analysis of the deposited data

How the results depend on the processing

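No paired analysis was possible because each strain has 1 array. With no replicates, a gene's ratio counted as moved when it shifted by more than the robust SD of its like-signal probe sets, and a median when it shifted by more than that of all named genes. Leaving out the centring shifts every ratio by the same -0.20, so which genes count as moved follows from their like-signal SD alone. It put cdc2 at -0.25, cdc13 at -0.073, cig2 at -0.28, cig1 at -0.45, puc1 at -0.14, cdc25 at -0.40, wee1 at -0.18, mik1 at -0.21, rum1 at -0.27 and ste9 at 0.050. It moved the median of the 10 to -0.23 and the list medians to -0.19 for CDK-activating kinase, -0.26 for size and checkpoint input, -0.32 for MBF, -0.24 for MBF targets, -0.18 for the anaphase-promoting complex, -0.23 for SCF, -0.23 for PP2A, -0.28 for mitotic transcription and -0.23 for other CDKs. The other alternatives moved no gene of the 10 and no list median by that measure, though wee1, mik1 and the median of the 10 genes changed sides of 0 in some. No gene of the 10 or of the lists was called at 2-fold under any alternative. Of all probe sets, 40 were 2-fold lower and 3 higher. The higher count was 1 without centring, 17 under quantile normalization, 12 when the 75th percentile set the background and 1 with a pseudocount. When the S. pombe probe sets' own 10th percentile set it, 14 were lower and 0 higher, and with no floor 73 were lower and 23 higher. That background left no value for mik1, and the brightest probe set applies to genes only and gave no probe set count. With 100 or 400 like-signal probe sets in place of 200, a choice made after seeing the data, 0 of the 10 genes lay outside the range, as with 200. Dim signals limit mik1 most.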
